A study of Mus musculus with 11 samples.

Results

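Genes widely used as markers of satellite glial cells (SGCs) were followed through RNA-Seq libraries of mouse dorsal root ganglia (DRGs): Fabp7, Dbi, Apoe, Glul, Slc1a3, Gfap, S100b, Cdh19, Bcan and Lgi4. These 10 genes were found by symbol, each on 1 row, among the 36670 rows of the expression table. The 11 libraries formed 4 groups. Wild-type (WT) mice gave 3 control libraries and 3 libraries taken 4 weeks after paclitaxel (PTX). Mice without Gpr37l1 (knockout, KO) gave 3 control libraries and 2 at the same time after PTX. The drug is used in chemotherapy and leaves a painful neuropathy, and Gpr37l1 is a G protein-coupled receptor of SGCs. The KO mice carried a constitutive targeted allele on a C57BL/6 background and were kept with littermates, so the loss of the receptor was not limited to glia. Adult mice were used, but an age for each library is not given in the sources used here. In every group replicate 3 was labelled female and the other libraries male, so sex and replicate 3 cannot be told apart. The labels do not say whether a library holds 1 mouse or several, so the p-values measure the spread between these libraries.

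SGCs are the glia that wrap the cell body of each sensory neuron in the ganglion. They take up and convert the glutamate that neurons release, buffer potassium around the soma, carry lipids and shape the matrix at the cell surface. They derive from the neural crest, like Schwann cells, and share much of their gene expression with them and with astrocytes of the brain. Gfap in particular is known as a gene that glia switch on after injury. A whole ganglion was sequenced here, so fewer SGCs and less of a transcript in each SGC cannot be told apart. Several markers are also expressed by other cells of the ganglion: Apoe by macrophages, and Cdh19, S100b and Lgi4 by Schwann cells.

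The genes lie on 6 chromosomes of the mm10 build, and the positions given by the table are those of whole genes with exons, introns and UTRs. Fabp7 (ENSMUSG00000019874) lies at chr10:57784881-57788450 on the plus strand and S100b (ENSMUSG00000033208) on the same chromosome at chr10:76253853-76261159. Dbi (ENSMUSG00000026385, chr1:120113280-120121078), Cdh19 (ENSMUSG00000047216, chr1:110888326-110977584) and Glul (ENSMUSG00000026473, chr1:153899944-153909723) lie on chromosome 1. That is also the chromosome of Gpr37l1, and the distances to it are 15.0, 24.2 and 18.7 Mb. Whether the strain origin of this part of the chromosome differed between KO and WT mice was not tested. Apoe (ENSMUSG00000002985, chr7:19696109-19699188) and Lgi4 (ENSMUSG00000036560, chr7:31059342-31070935) are on chromosome 7, and Bcan (ENSMUSG00000004892, chr3:87987531-88000230) is on chromosome 3. Slc1a3 (ENSMUSG00000005360) is at chr15:8634124-8710764 and Gfap (ENSMUSG00000020932) at chr11:102887336-102897200. For 9 of the 10 genes these limits are those of GENCODE release M21, and for Gfap they differ. In that annotation Glul overlaps Teddm2, S100b overlaps Dip2a, Lgi4 overlaps Fxyd3 and Gfap overlaps a noncoding gene, each on the opposite strand. Slc1a3 and Cdh19 overlap unvetted transcripts on their own strand, and Glul holds a microRNA gene on its own strand. The library kit kept the strand, but whether the counting used it is not given in the sources used here, so reads of these overlapping pairs may be shared.

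Leaving out the low Slc1a3 and Gfap, Fabp7 had the largest fitted differences for PTX and for KO against WT, as given further on. The upstream sequence of Fabp7 is therefore shown. The sequence is from RefSeq on GRCm38.p6, whose promoter entries matched 8 of the 10 genes (not Cdh19 and Lgi4). It is written 5′ to 3′ on the strand of the gene and ends before the gene's first base, with motif matches in capitals. The stretch is chr10:57784673-57784880 on the plus strand, 208 bases.
Fabp7: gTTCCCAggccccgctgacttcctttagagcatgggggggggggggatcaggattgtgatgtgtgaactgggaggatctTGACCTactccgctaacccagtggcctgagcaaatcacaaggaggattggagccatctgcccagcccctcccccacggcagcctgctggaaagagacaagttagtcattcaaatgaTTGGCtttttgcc
Both strands were searched for the letters ACAAAG, which form the core that SOX factors bind, and for TATAAA, the letters of a TATA box. The core bound by the Notch effector RBPJ was searched as TGGGAA. The single element bound by nuclear receptors was searched as AGGTCA, and the single element bound by NFI factors as TTGGC. The Fabp7 stretch held 1 match each of the RBPJ core, the nuclear receptor element and the NFI element, all in capitals and none overlapping another. Over the 250 bases upstream of all 32851 RefSeq promoter entries, the RBPJ core was found in 21.6%, the nuclear receptor element in 14.0%, the NFI element in 41.5%, the SOX core in 16.5% and the TATA box in 12.4%. Among the 8 matched markers the NFI element was found for 5, the RBPJ core and the nuclear receptor element for 3 each, the TATA box for 2 and the SOX core for 1 (Apoe). These counts are by gene, whereas the shares are by entry. The 8 genes had 11 entries, with the NFI element in 6 and the RBPJ core and the nuclear receptor element in 3 each. These are matches of letters in a window and no sign of binding.

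Levels were compared between genes as FPKM, a value scaled for transcript length and library size. Over the WT controls the markers spanned a wide range. Apoe, a carrier of cholesterol, was the highest at 892 ± 184 FPKM (SD, n = 3) and ranked 30 among the 29220 genes above 0. S100b, a calcium-binding protein of glia, followed at 280 ± 24.4 FPKM and Fabp7, the brain-type fatty acid-binding protein, at 196 ± 44.0 FPKM. Dbi, which binds acyl-CoA, stood at 107 ± 18.7 FPKM and Glul, glutamine synthetase, at 97.4 ± 7.79 FPKM. The next 3 genes had nearly the same level: Bcan, a matrix proteoglycan, at 19.9 ± 0.859 FPKM, Cdh19, a cadherin of neural crest glia, at 18.6 ± 3.45 FPKM, and Lgi4, a secreted protein of peripheral glia, at 18.5 ± 1.98 FPKM. Slc1a3, the glutamate transporter GLAST, reached 2.03 ± 0.309 FPKM and Gfap, a glial intermediate filament, 1.82 ± 1.91 FPKM.

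The order from Apoe through S100b and Fabp7 to Dbi held in 11 of 11 libraries for each step. Dbi was above Glul in 2 of 11 libraries, WT controls 1 and 2, and below it in every WT PTX and KO library. Their log2 ratio was 0.128 ± 0.325 (SD, n = 3) in WT controls, within its spread of 0, and -0.282 ± 0.118 in KO controls, where Glul was the higher by more than the spread. Bcan was above Cdh19 in 3 of 11 libraries, WT controls 1 and 3 and KO PTX 3. Cdh19 was above Lgi4 in 10 of 11 libraries, and Slc1a3 was above Gfap in 8 of 11. All 10 markers were detected in every library, with Slc1a3 and Gfap at ranks 10897 and 11276 over the WT controls, where Lgi4 was at rank 2573.

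**Figure D1:**
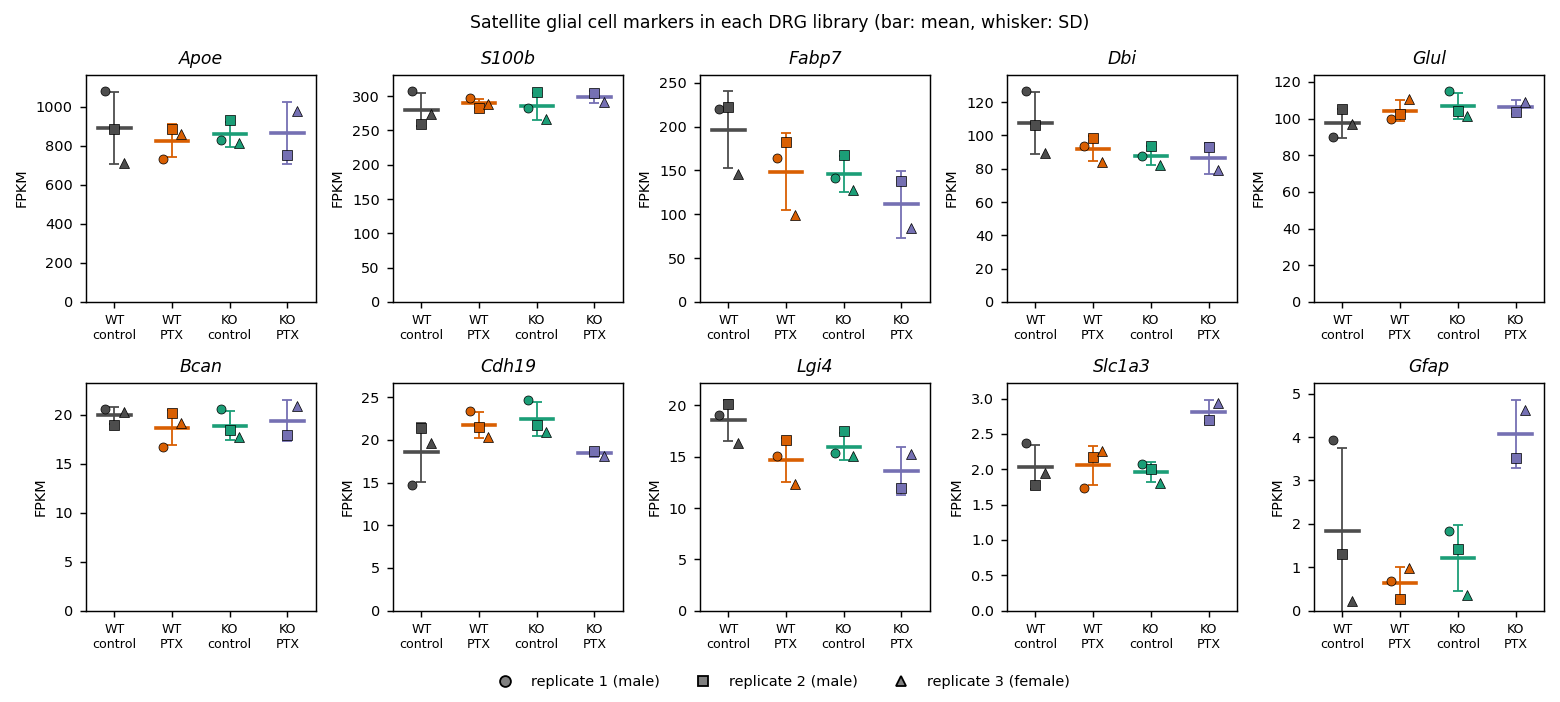
FPKM (y axis, starting at 0) of each of the 10 markers in each DRG library, by group (x axis). Points are libraries with the symbol giving the replicate number, horizontal bars are group means and whiskers are SD, cut off at 0. The Fabp7 triangles (replicate 3, labelled female) are the lowest point in all 4 groups, and Gfap is above 3 FPKM only in WT control 1 and both KO PTX libraries.

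The libraries held 52.7 to 80.3 M (M, mega) estimated counts with a median of 75.5 M, which left even Gfap with at least 69 counts in each library. Fewer counts than 60 M were found in 4 libraries: WT control 1, WT PTX 3 and both KO PTX libraries. The same 4 libraries had the highest score of 24 marker genes of central astrocytes, oligodendrocytes and spinal neurons, at 0.766 to 1.35 on the log2(FPKM + 1) scale against 0.528 to 0.606 in the other 7. The summed FPKM of 8 oligodendrocyte genes was 0.34 to 2.96 in WT controls, 0.52 to 2.34 in WT PTX, 0.43 to 0.70 in KO controls and 2.58 and 11.5 in KO PTX. For 8 spinal neuron genes the sum was 1.11 to 1.81, 1.13 to 2.39, 0.91 to 1.26, and 2.40 and 6.68 in the same order of groups. For 8 astrocyte genes it was 17.4 to 22.0, 18.6 to 24.3, 17.5 to 21.5, and 20.5 and 33.0. Only 1 or 2 of these 8 astrocyte genes were under 1 FPKM in all libraries of a group. How much of the score came from cells of the ganglion itself, such as SGCs, was not tested. Klk6 in WT controls, Olig2 in WT PTX, and Klk6 and Opalin in KO controls were listed at 0 in every library, while no oligodendrocyte gene was at 0 in both KO PTX libraries. Of the spinal neuron genes, Slc6a5 in both WT groups, Chat in both PTX groups and Slc32a1 in KO controls were at 0 throughout. Since both KO PTX libraries are in this set, depth, these central markers and the KO PTX condition cannot be told apart. Genes of sensory neurons, which define the ganglion, summed to 6527 to 7687 FPKM over 12 genes, with none at 0. Gpr37l1 itself followed the genotype labels, with 14.6 to 35.7 FPKM in the 6 WT libraries, 0.21 to 0.29 FPKM in KO controls and 0.60 and 1.15 FPKM in KO PTX.

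The design asks whether the SGC program of the ganglion differed after PTX and without Gpr37l1. No marker passed an adjusted p of 0.05 in any comparison in edgeR's quasi-likelihood test over 15087 genes with Benjamini-Hochberg adjustment. For PTX against control in WT mice, 0 of 10 markers passed, against 0.00663% of all genes (1 gene, Per3). For PTX against control in KO mice the same share was 0.00663% (1 gene, Pde10a), for KO against WT in controls 0.00663% (1 gene, Gpr37l1) and for the difference between the PTX effects 0.00663% (Pde10a again). It was 0.0133% for KO against WT after PTX and 0.0133% for KO against WT over both treatments, in both cases Gpr37l1 and Pde10a. Per3 and Pde10a were named after their values were seen.

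At an unadjusted p under 0.05, 3 of 10 markers were lower and none higher after PTX in WT mice, where 13.5% of all genes were under that p. In KO mice 1 marker was higher and 1 lower after PTX (4.32% of all genes). KO against WT gave 1 higher and 2 lower in controls (7.54%), 2 higher and 1 lower after PTX (3.55%) and 2 lower over both treatments (3.75%). For the difference between the PTX effects 2 were higher and 1 lower (6.30%). The median log2 fold change of the 10 markers was -0.10 after PTX in WT and 0.02 in KO, against -0.01 over all genes in both. It was -0.07 for KO against WT in controls and 0.04 after PTX, where the medians over all genes were 0.00 and -0.01. With DESeq2 the only marker called was Fabp7. It called 2.05% of all genes in the PTX comparison of WT mice and 0.192% in that of KO mice. For KO against WT the shares were 0.278% in controls, 0.0663% after PTX and 0.186% over both treatments, and for the difference of PTX effects 0.0795%. Comparisons that name the same group share its libraries.

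**Figure D2:**
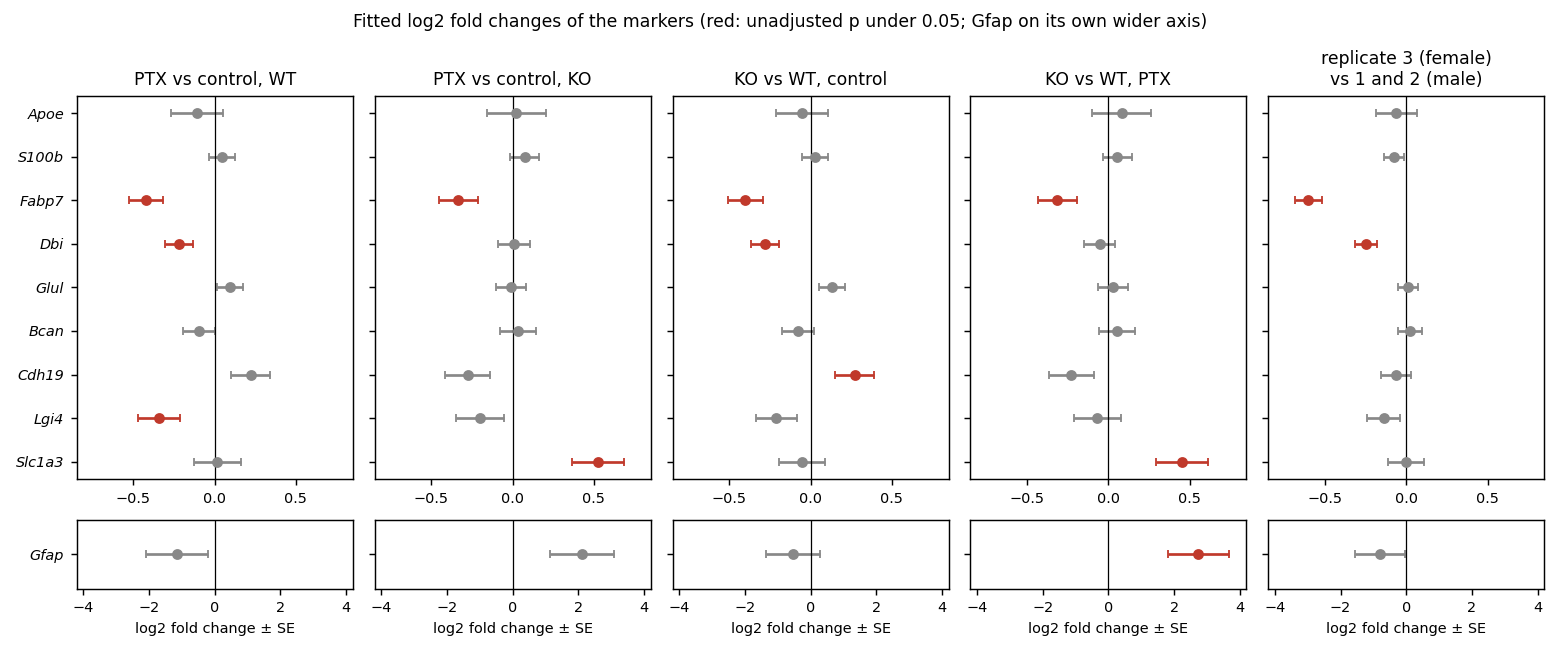
Fitted log2 fold change with its SE (x axis) of each marker in 4 group comparisons and for replicate 3 against replicates 1 and 2. Gfap is drawn on its own wider axis, red marks an unadjusted p under 0.05, and no marker was under 0.05 after adjustment. Fabp7 lies left of 0 in all 5 panels, by 0.31 to 0.60 on the log2 scale.

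Leaving out Slc1a3 and Gfap, which had the lowest levels, Fabp7 had the largest fitted differences for PTX in each genotype and for KO against WT. For the difference between the PTX effects Cdh19 had the larger value, -0.50 against 0.09 for Fabp7. FABP7 binds long-chain fatty acids and is a common marker for staining SGCs. Its level was 221, 223 and 145 FPKM in WT controls 1, 2 and 3, and 164, 183 and 98.7 FPKM in WT PTX 1, 2 and 3. In KO controls 1, 2 and 3 it was 141, 168 and 127 FPKM, and in KO PTX 2 and 3 it was 138 and 84.2 FPKM. The groups overlapped, and the female library was the lowest in each. Every PTX library was below the control library of the same number and genotype (3 of 3 in WT and 2 of 2 in KO). Every KO library was likewise below the WT library of the same number and treatment, although nothing in the labels ties equal numbers to the same mice. After PTX the fitted change was -0.42 ± 0.107 (SE, log2) in WT mice, a level 25.4% lower (edgeR adjusted p = 0.227), and -0.34 ± 0.121 in KO mice (edgeR adjusted p = 0.999), where it was -0.18 without KO control 3. KO against WT gave -0.40 ± 0.107 in controls (edgeR adjusted p = 0.657) and -0.31 ± 0.121 after PTX (edgeR adjusted p = 0.993). Over both treatments it was -0.36 ± 0.0811, a level 22.0% lower (edgeR adjusted p = 0.899).

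DESeq2 called Fabp7 for PTX in WT mice (log2 fold change -0.43, adjusted p = 0.0109) and for KO against WT over both treatments (-0.36, adjusted p = 0.00858). Over all alternatives the adjusted p of Fabp7 ran from 0.0109 to 0.685 in the first of these comparisons and from 0.00858 to 1.0 in the other. The exact two-sided permutation test of log2(FPKM + 1), which takes no account of sex, gave p = 0.3 for PTX in WT (3 against 3 libraries, smallest possible p 0.1). The same exact test gave p = 0.165 for KO against WT over both treatments (5 against 6 libraries). Without the 4 libraries under 60 M counts, the change after PTX in WT was -0.29 (edgeR adjusted p = 0.532) and KO against WT in controls was -0.38 (edgeR adjusted p = 0.715). With the central marker score as a covariate the change after PTX in KO was -0.16 and KO against WT after PTX was -0.17.

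The clearest separation of Fabp7 was between replicate 3 and the other replicates, a comparison added after the values were seen. Replicate 3 was the lowest library in 4 of 4 groups. The fitted difference was -0.60 ± 0.0844 (SE, log2), so the level in the female libraries was 34.2% lower (edgeR adjusted p = 0.0613). In this comparison 0.0398% of all genes passed in edgeR, 8.44% had an unadjusted p under 0.05 and DESeq2 called 0.815%, among them Fabp7 (adjusted p = 1.26e-09). Without KO control 1, edgeR's adjusted p was 0.00783, and without KO control 3 it was 0.0123, in a range of 1.26e-09 to 0.395 over 18 alternatives. Without the 4 libraries under 60 M counts the difference was -0.46 (edgeR adjusted p = 0.395). The 6 genes that edgeR called here were the Y-linked Kdm5d, Uty, Ddx3y and Eif2s3y, with Gm29650 and H19. All were lower in replicate 3 except H19, which was higher (log2 fold change 1.04). They were named after their values were seen.

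Dbi differed in the same direction as Fabp7, by less, in WT mice after PTX and between the genotypes in controls, while its fitted differences in the comparisons with KO PTX were near 0. DBI, also known as acyl-CoA-binding protein, holds acyl-CoA esters in the cytosol, and peptides cut from it act on GABA-A receptors. Its level was 127, 106 and 89.2 FPKM in WT controls 1 to 3, and 93.6, 98.6 and 84.0 FPKM in WT PTX 1 to 3. It was 87.9, 93.5 and 82.0 FPKM in KO controls 1 to 3 and 92.8 and 79.5 FPKM in KO PTX 2 and 3. WT control 1 and 2 were the highest libraries, and the female library was again the lowest in 4 of 4 groups. The change after PTX in WT was -0.22 ± 0.0857 (SE, log2, edgeR adjusted p = 0.339) and without WT control 1 it was -0.11. KO against WT in controls was -0.28 ± 0.0857 (edgeR adjusted p = 0.657), and -0.18 without WT control 1. Over both treatments KO against WT was -0.17 ± 0.0647 (edgeR adjusted p = 1.0), and replicate 3 against the others was -0.25 ± 0.067 (edgeR adjusted p = 0.448). After PTX in KO mice the change was 0.01 ± 0.0964, and KO against WT after PTX was -0.05 ± 0.0965, where Fabp7 had -0.34 and -0.31. In libraries of the same number Dbi was lower after PTX in 3 of 3 WT and 2 of 2 KO pairs. It was also lower in KO in 3 of 3 control and 2 of 2 PTX pairs. Fabp7 was lower in the same pairs. For KO PTX these pairs follow the numbers of the descriptions. By the titles, KO PTX 2 (92.8 FPKM) would be paired with KO control 1 (87.9 FPKM) and be the higher for Dbi. The PTX effect on Dbi in KO minus that in WT was 0.23 ± 0.129 (edgeR adjusted p = 0.724), with an unadjusted p over 0.05.

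The fatty acid-binding genes listed as partners did not pass the test in any comparison. Fabp5 stood at 30.0 ± 10.6 FPKM (SD, n = 3) in WT controls and Fabp3 at 45.0 ± 6.43 FPKM. Tspo, a mitochondrial protein that binds DBI, was lower after PTX in WT by -0.58 ± 0.254 on the log2 scale (edgeR adjusted p = 0.365), from 7.66 ± 1.14 to 5.13 ± 1.01 FPKM. Tspo is also a gene of macrophages, and 9 of 11 tested macrophage genes were lower in the same comparison at an unadjusted p under 0.05 (median log2 fold change -0.57), where 13.5% of all genes were under that p in either direction. The summed FPKM of the 12 listed macrophage genes was 71.4 to 88.2 in WT controls, 47.9 to 62.1 in WT PTX, 65.0 to 74.0 in KO controls and 52.5 and 60.1 in KO PTX. None of the 12 was at 0 in all libraries of a group. At an unadjusted p under 0.05, 4 of the 11 tested macrophage genes were lower in KO than in WT controls (7.54% of all genes). After PTX in KO mice 3 were lower (4.32%), and 0 were higher in either comparison. For the difference of PTX effects 3 were higher and 0 lower (6.30%). The part of these cells in the differences of Fabp7, Dbi and Tspo was not tested.

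Glul and Slc1a3 belong to the handling of glutamate. Glutamine synthetase turns glutamate into glutamine, and GLAST takes glutamate up from the space around the neuron. Glul was 89.8, 105 and 97.1 FPKM in WT controls 1 to 3, and 99.5, 103 and 111 FPKM in WT PTX 1 to 3. It was 115, 104 and 101 FPKM in KO controls 1 to 3 and 104 and 109 FPKM in KO PTX 2 and 3. The highest library was 1.28 times the lowest, the groups overlapped throughout, and no comparison had an unadjusted p under 0.05. The fitted differences between groups were from -0.01 ± 0.0921 for PTX in KO mice to 0.13 ± 0.0815 for KO against WT in controls.

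Slc1a3 was 2.37, 1.77 and 1.94 FPKM in WT controls 1 to 3, and 1.74, 2.17 and 2.26 FPKM in WT PTX 1 to 3. It was 2.07, 2.0 and 1.8 FPKM in KO controls 1 to 3 and 2.70 and 2.93 FPKM in KO PTX 2 and 3. Both KO PTX libraries were above each of the other 9. The change after PTX in KO was 0.52 ± 0.16 (SE, log2, edgeR adjusted p = 0.999) and KO against WT after PTX was 0.45 ± 0.159 (edgeR adjusted p = 0.993). The PTX effect in KO exceeded that in WT by 0.51 ± 0.214 (edgeR adjusted p = 0.724). With the central marker score as a covariate these 3 values were 0.20, 0.18 and 0.19. The exact two-sided permutation p was 0.2 for both KO PTX comparisons, the smallest that 3 against 2 libraries allow.

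Slc1a2, the GLT-1 transporter of brain astrocytes, moved in the same direction and is also on the list of central astrocytes. It was 0.367 ± 0.0611 FPKM (SD, n = 3) in KO controls and 2.26 and 4.98 FPKM in KO PTX. Its change was 3.08 ± 0.925 after PTX in KO (edgeR adjusted p = 0.999), 2.24 ± 0.87 for KO against WT after PTX, and 3.58 ± 1.2 for the difference of PTX effects. In WT controls it reached 1.90 FPKM in 1 library and 0.29 and 0.41 in the others. In WT PTX it was likewise 1.74 FPKM in 1 library and 0.26 and 0.35 in the others. The glutamine transporter Slc38a3 was at 0.13 to 0.56 FPKM over all libraries, below the level that was tested.

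Gfap varied more between libraries than any other marker. It was 3.94, 1.31 and 0.22 FPKM in WT controls 1 to 3, and 0.68, 0.26 and 0.98 FPKM in WT PTX 1 to 3. It was 1.84, 1.43 and 0.37 FPKM in KO controls 1 to 3 and 3.51 and 4.62 FPKM in KO PTX 2 and 3. The highest library was 21.0 times the lowest, where no other marker exceeded 2.64 times (Fabp7). WT control 1 lay between the KO PTX libraries, so KO PTX overlapped the WT controls and stood apart only from WT PTX and KO controls. KO against WT after PTX was 2.74 ± 0.928 (SE, log2, edgeR adjusted p = 0.993), and the PTX effect in KO exceeded that in WT by 3.26 ± 1.24 (edgeR adjusted p = 0.724). With the central marker score as a covariate these were 0.54 and 0.38, and with limma on log2(FPKM + 1) they were 1.72 and 1.91. Single libraries moved both values: KO against WT after PTX was 1.74 without KO PTX 3 and 4.47 without WT PTX 3, and the difference of PTX effects was 2.08 without WT control 1 and 4.89 without WT PTX 3. The change after PTX was -1.14 ± 0.934 in WT and 2.12 ± 0.978 in KO, both with an unadjusted p over 0.05.

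Over the 11 libraries, Gfap and Slc1a3 moved with the central marker score, which holds neither gene. Pearson's r was 0.712 for Gfap (Spearman's rho 0.582) and 0.843 for Slc1a3 (rho 0.8). Without the 2 libraries with the score farthest from the median, WT PTX 3 and KO PTX 3, r was 0.841 and 0.853 over 9 libraries. WT PTX 3 had a score of 0.788 but only 0.98 FPKM of Gfap. WT control 1 and KO PTX 2 were kept, with scores close to that (0.777 and 0.766) and 3.94 and 3.51 FPKM of Gfap. The higher r for Gfap therefore depends on which libraries were left out. Other markers also moved with the score to some degree, and most of these values changed when the same 2 libraries were left out. Fabp7 went from r = -0.654 to 0.107, Cdh19 from -0.497 to -0.717, S100b from 0.34 to 0.67, Dbi from -0.277 to 0.507 and Glul from 0.212 to -0.388. For Apoe, Bcan and Lgi4 r was 0.422, 0.402 and -0.261 over the 11 libraries, and 0.268, 0.137 and -0.309 over the 9. These values describe the libraries, which share the score's split by depth and group, and the part of central tissue in the levels of Gfap and Slc1a3 was not tested beyond the covariate.

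**Figure D3:**
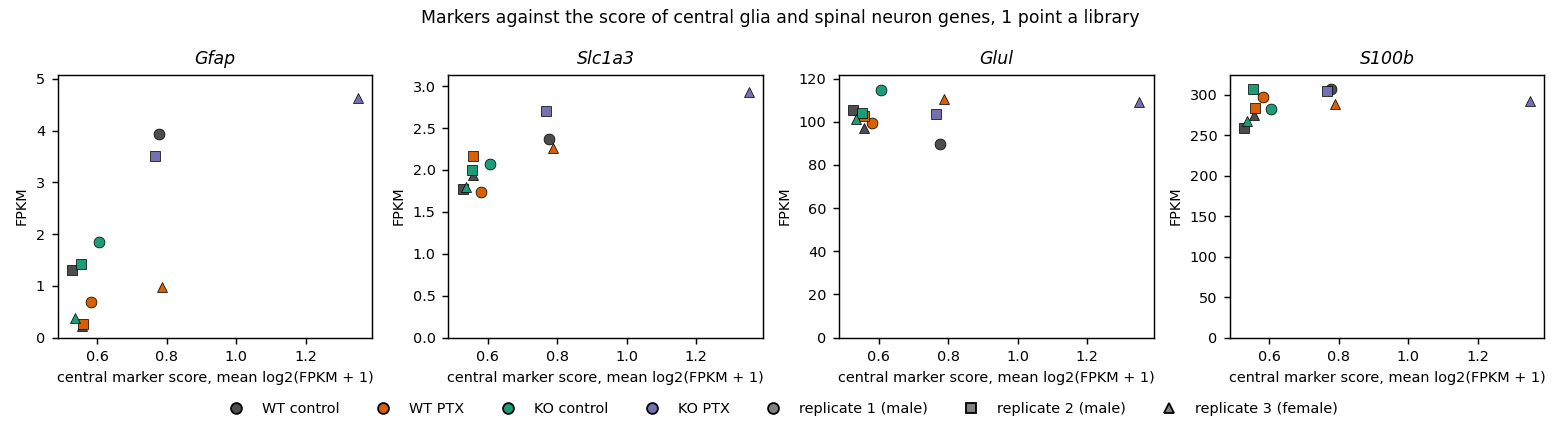
FPKM of Gfap, Slc1a3, Glul and S100b (y axes, starting at 0) against the mean log2(FPKM + 1) of 24 genes of central astrocytes, oligodendrocytes and spinal neurons (x axis), with 1 point per library. Colours give the group and symbols the replicate number. The 4 libraries right of 0.7 on the x axis are those under 60 M counts, and KO PTX 3 lies farthest right at 1.35.

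Apoe, the most abundant marker, showed no difference beyond its spread. It carries cholesterol from glia to neurons, and macrophages make it as well. Its level was 1080, 885 and 711 FPKM in WT controls 1 to 3, and 731, 888 and 860 FPKM in WT PTX 1 to 3. It was 830, 931 and 816 FPKM in KO controls 1 to 3 and 755 and 977 FPKM in KO PTX 2 and 3. The WT controls alone spanned the range of all other libraries. The group differences were from -0.11 ± 0.161 for PTX in WT to 0.08 ± 0.181 for KO against WT after PTX on the log2 scale. Its receptor gene Lrp1 was lower after PTX in WT by -0.24 ± 0.106 (edgeR adjusted p = 0.368), at 5.29 ± 0.403 against 6.24 ± 0.385 FPKM.

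S100b was the steadiest marker. It was 307, 259 and 275 FPKM in WT controls 1 to 3, and 297, 283 and 288 FPKM in WT PTX 1 to 3. It was 282, 307 and 267 FPKM in KO controls 1 to 3 and 304 and 292 FPKM in KO PTX 2 and 3. Its highest library was 1.18 times its lowest, and its group differences were from 0.03 ± 0.0809 to 0.07 ± 0.0911 on the log2 scale. Ager, whose product is a receptor for S100B outside the cell, was at 0.04 to 0.71 FPKM and was not tested. Bcan was nearly as steady, at 20.6, 19.0 and 20.3 FPKM in WT controls 1 to 3 and 16.7, 20.2 and 19.1 FPKM in WT PTX 1 to 3. It was 20.6, 18.4 and 17.7 FPKM in KO controls 1 to 3 and 17.9 and 20.9 FPKM in KO PTX 2 and 3. No group stood apart, and its group differences were from -0.10 ± 0.0976 to 0.05 ± 0.11.

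Cdh19, which marks cells of the Schwann lineage and SGCs, had PTX differences of opposite sign in the 2 genotypes, neither past the test. It was 14.7, 21.4 and 19.6 FPKM in WT controls 1 to 3, and 23.3, 21.5 and 20.4 FPKM in WT PTX 1 to 3. It was 24.6, 21.8 and 20.9 FPKM in KO controls 1 to 3 and 18.7 and 18.1 FPKM in KO PTX 2 and 3. Both KO PTX libraries were below each KO control, and WT control 1 was the lowest library of all. The PTX effect in KO minus that in WT was -0.50 ± 0.182 (SE, log2, edgeR adjusted p = 0.724), and -0.33 without WT control 1. KO against WT in controls was 0.27 ± 0.12 (edgeR adjusted p = 0.657), and 0.12 without WT control 1. The change after PTX was 0.22 ± 0.12 in WT and -0.28 ± 0.136 in KO, both with an unadjusted p over 0.05. The 3 lowest libraries for Cdh19, WT control 1 and both KO PTX libraries, were among the 4 under 60 M counts.

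Lgi4, which Schwann cells and SGCs secrete and which binds ADAM22, was 19.1, 20.2 and 16.3 FPKM in WT controls 1 to 3. It was 15.1, 16.6 and 12.3 FPKM in WT PTX 1 to 3, 15.3, 17.6 and 15.1 FPKM in KO controls 1 to 3, and 11.9 and 15.3 FPKM in KO PTX 2 and 3. Each WT PTX library was below the WT control of the same number, although the groups overlapped by 1 library. The change after PTX in WT was -0.34 ± 0.128 (SE, log2, edgeR adjusted p = 0.324), a level 21.1% lower, and -0.31 without the 4 libraries under 60 M counts. In KO mice it was -0.20 ± 0.146. The paralogs Lgi2 and Lgi1 were higher after PTX in WT by 0.28 ± 0.0879 (edgeR adjusted p = 0.276) and 0.22 ± 0.0817 (edgeR adjusted p = 0.329). Adam23 was higher in KO controls than in WT controls by 0.28 ± 0.112 (edgeR adjusted p = 0.657), while Adam22 stayed at 11.9 to 16.3 FPKM and had no unadjusted p under 0.05.

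Schwann cells express Cdh19, S100b and Lgi4 too. The summed FPKM of 10 genes of myelinating Schwann cells was 1812 to 2227 in WT controls, 1579 to 1962 in WT PTX, 1755 to 2030 in KO controls and 1270 and 2004 in KO PTX. None of these genes was at 0 in all libraries of any group, and 0 of 10 had an unadjusted p under 0.05 for PTX in WT. For 6 genes of nonmyelinating Schwann cells the sums were 358 to 460, 338 to 365, 359 to 389, and 365 and 382 FPKM. Of these 6, 1 was higher and 1 lower at an unadjusted p under 0.05 for PTX in WT, where the share of all genes was 13.5%. For replicate 3 against the others, 3 of the 6 were lower and 0 higher, where that share was 8.44%. Skeletal muscle genes, from tissue beside the ganglion, had sums of 15.5 to 553 FPKM in WT controls, 3.33 to 181 in WT PTX, 108 to 603 in KO controls and 68.3 and 99.8 in KO PTX. The part of these tissues in the marker levels was not tested.

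Since all the markers are read from the same ganglia, ratios within a library show how far they moved apart. The log2 ratio of Fabp7 to Glul was 0.987 ± 0.368 (SD, n = 3) in WT controls, 0.463 ± 0.545 in WT PTX, 0.439 ± 0.217 in KO controls and 0.0185 ± 0.558 (n = 2) in KO PTX. In single libraries it ran from -0.376 in KO PTX 3 and -0.164 in WT PTX 3, where Glul was above Fabp7, to 1.3 in WT control 1. The ratio of Fabp7 to Dbi ran from 0.0813 to 1.07 and was 0.859 ± 0.189 in WT controls, 0.644 ± 0.358 in WT PTX, 0.722 ± 0.108 in KO controls and 0.328 ± 0.348 (n = 2) in KO PTX. In both ratios WT controls had the highest mean and KO PTX the lowest, and the female PTX libraries were the lowest points. The ratios were not tested.

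**Figure D4:**
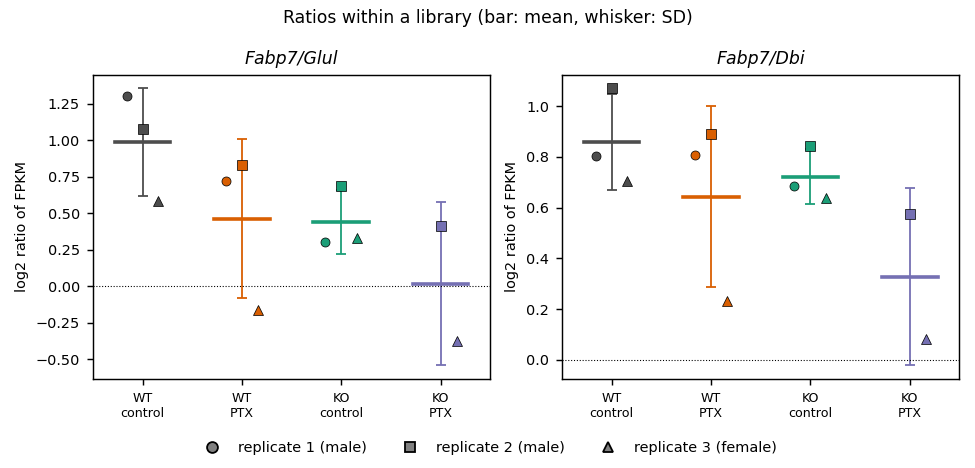
Log2 ratio of FPKM within each library (y axis) of Fabp7 to Glul and of Fabp7 to Dbi, by group (x axis). Points are libraries with the symbol giving the replicate number, bars are means and whiskers are SD. Replicate 3 of WT PTX and of KO PTX are the only libraries below 0 for Fabp7 to Glul, at -0.164 and -0.376.

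The markers did not vary as one block. Of the 45 pairs, 23 had a positive Pearson's r of log2(FPKM + 1) over the 11 libraries, the median r was 0.058, 9 pairs were over 0.5 and 5 were under -0.5. Fabp7 and Dbi were the closest pair (r = 0.868), and Lgi4 went with both (0.707 and 0.63). Slc1a3 and Gfap were the next closest (0.758), and Glul and Cdh19 also went together (0.611). Glul and Dbi were the most opposed (-0.663), followed by Slc1a3 and Cdh19 (-0.584), Gfap and Cdh19 (-0.56) and Fabp7 and Glul (-0.559). These correlations describe 11 libraries that share groups, depth and the split by replicate 3.

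**Figure D5:**
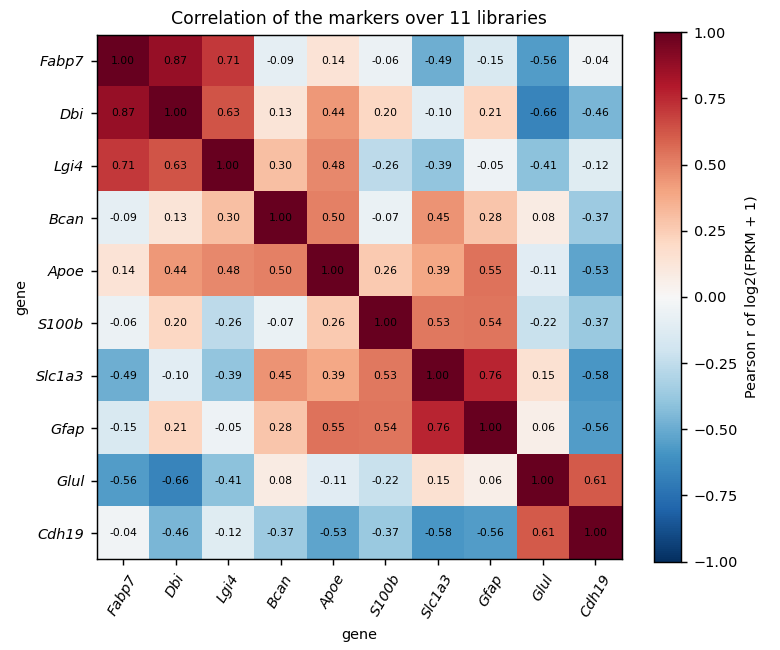
Pearson's r of log2(FPKM + 1) between the 10 markers (both axes) over the 11 libraries, from blue (-1) to red (1). Fabp7, Dbi and Lgi4 form a red corner at the upper left (0.63 to 0.868), and Cdh19 is blue against Apoe, Slc1a3 and Gfap.

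Among the 15087 genes tested, those most like a marker over the 11 libraries were found by Pearson's r of log2(FPKM + 1). For Fabp7 they were Dbndd2 (0.969), Afg3l1 (0.942) and Cyb5r1 (0.941), and for Dbi Slc39a7 (0.958), Gcsh (0.944) and Acadvl (0.94), the last an enzyme of fatty acid oxidation. For Cdh19 they were Megf9 (0.967), Gpm6b (0.946) and Prrg1 (0.942), and for Lgi4 they included Wbp1l (0.931) and Ephb2 (0.922). For Slc1a3 they were Arpp21 (0.931), Hpcal4 (0.909) and Chmp4b (0.908), and for Glul Sox17 (0.912), Baz2b (0.867) and Mertk (0.867). Gfap had Swi5 (0.905), Hirip3 (0.902) and B2m (0.901), and Apoe had Arpin (0.9), Sf3b5 (0.884) and Psmb2 (0.873). No gene reached an r over 0.9 for S100b and Bcan. These genes were picked as the highest r among 15087 genes over 11 libraries, and no test was made of them.

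Other genes of SGCs were read from a list of 20, of which 19 could be tested. Gpr37l1 was the only one to pass the adjusted threshold, in the KO against WT comparisons (log2 fold change -7.03 ± 0.371 in controls, edgeR adjusted p = 4.53e-05, and -4.79 ± 0.394 after PTX, edgeR adjusted p = 0.00172). Its residual level in KO mice was low, with 39 to 56 counts in KO controls and 81 and 160 in KO PTX, both libraries under 60 M counts. This residue was higher after PTX than in controls by 1.77 ± 0.392 (edgeR adjusted p = 0.999). The PTX effect in KO minus that in WT was 2.24 ± 0.474 (edgeR adjusted p = 0.724). That difference sets these few counts against at least 2854 in each WT library. The list's median log2 fold change was -0.00114 after PTX in WT and 0.01 in KO, and 0.03 for KO against WT in controls. After PTX in WT, 3 of 19 were lower at an unadjusted p under 0.05, a share near the 13.5% of all genes under that p in either direction: the fatty acid synthase Fasn (-0.37 ± 0.115, edgeR adjusted p = 0.276), the intermediate filament Vim (-0.25 ± 0.0734, edgeR adjusted p = 0.264) and the ecto-ATPase Entpd2 (-0.35 ± 0.157, edgeR adjusted p = 0.371). Fasn and Vim were also lower in KO than in WT controls (-0.27 ± 0.115 and -0.20 ± 0.0733, edgeR adjusted p = 0.657 for both). The PTX effect on Fasn in KO minus that in WT was in the other direction (0.44 ± 0.172, edgeR adjusted p = 0.724). Kcnj10, which codes for the potassium channel Kir4.1 of SGCs, was at 17.7 ± 4.22 FPKM in WT controls, 16.7 ± 0.13 in WT PTX, 17.1 ± 2.58 in KO controls and 18.2 ± 0.247 (n = 2) in KO PTX, and Gja1, the gap junction protein connexin 43, at 2.61 to 3.3 FPKM over all libraries. Neither had an unadjusted p under 0.05.

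Vim also went with replicate 3 (-0.27 ± 0.0575, edgeR adjusted p = 0.334), as did Sox10, the transcription factor of peripheral glia (-0.20 ± 0.0638, edgeR adjusted p = 0.458), and Entpd2 (-0.29 ± 0.125, edgeR adjusted p = 0.576). These 3 were the only genes of the 19 with an unadjusted p under 0.05 there, all lower in the female libraries, where 8.44% of all genes were under that p. Atp1b2, a sodium pump subunit, was higher in KO than WT after PTX (0.39 ± 0.176, edgeR adjusted p = 0.993), at 21.0 and 33.5 FPKM in KO PTX against 20.3 to 21.5 FPKM in WT PTX. KO PTX 2 lay within the WT PTX range, and without KO PTX 3, the library with the highest central marker score (1.35), the difference was -0.03. With that score as a covariate it was also -0.03, and without KO PTX 2 it was 0.80 (edgeR adjusted p = 0.155). Of 20 genes listed as partners of the markers, 17 could be tested and 0 passed the adjusted threshold in any comparison, with 4 under an unadjusted p of 0.05 for PTX in WT (13.5% of all genes) and 0 or 1 in each other comparison (3.55% to 8.44% of all genes).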

How the data were processed

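RNA-Seq of 11 mouse DRG libraries was analysed from 1 table of the whole series. Per the labels, a stranded kit was used on poly(A) RNA, and the submitters' processing notes name cutadapt, FastQC, HISAT2, StringTie and the mm10 build. The FPKM columns were deposited by the authors after scaling for library size and transcript length. The deposited estimated count columns were not normalized and were rounded to whole numbers here. Library totals of 52.7 to 80.3 M (mega) counts set the precision. Depth was not equal between groups.

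Of 36670 genes, the 15087 whose mean FPKM reached 0.5 were tested in R 4.3.3 with edgeR 4.0.16, using TMM, the quasi-likelihood test, all 11 libraries and the labelled sex as a covariate, with Benjamini-Hochberg adjustment and a threshold of 0.05. SE was taken as the log2 fold change over the root of the F statistic. The code was tested on simulated data. Exact two-sided permutation tests used log2(FPKM + 1). Alternatives used DESeq2 1.42.0, limma 3.58.1, other scalings, filters and covariates, and each library left out. Figures were drawn with matplotlib 3.10.9.

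Groups and numbers came from the labels. For KO PTX the numbers in titles and descriptions disagree, and those of the descriptions were kept. All 10 markers passed the filter. For each marker, a fold change with its adjusted p is given where the unadjusted p was under 0.05. From the list of other SGC genes and of partners, the genes past the threshold or up to 4 with the lowest unadjusted p in a comparison are named. Likeness is given for markers with an r over 0.9. Kcnj10, Gja1, Fabp3, Fabp5, Slc38a3, Ager and Adam22 were named for their roles, outside this rule and after their values were seen. The markers and lists were chosen with earlier results of these data known. Some genes and 1 sequence that these rules would name are not reported here.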

Additional observations from a re-analysis of the deposited data

Results flagged for a closer look

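Among the 10 markers, Gfap and Cdh19 stood out because every WT PTX library lay on one side of the mean of its controls and every KO PTX library on the other side. Of all 15087 genes tested, 13.3% had this pattern. In both genes it rested on WT control 1: without it, 0 of 10 markers and 10.7% of all genes had the pattern, as WT PTX 3 was then above the WT control mean of 0.765 FPKM for Gfap and below that of 20.5 FPKM for Cdh19. For Gfap the WT PTX libraries (0.26 to 0.98 FPKM) were below the WT control mean of 1.82 FPKM, and the KO PTX libraries (3.51 and 4.62 FPKM) were above the KO control mean of 1.21 FPKM. The difference between the PTX effects was 3.26 on the log2 scale (edgeR adjusted p = 0.724), 2.08 without WT control 1 and 0.38 with the central marker score as a covariate. WT control 1 and both KO PTX libraries were among the 4 with the highest central marker score. For Cdh19 the WT PTX libraries (20.4 to 23.3 FPKM) were above the WT control mean of 18.6 FPKM, and the KO PTX libraries (18.1 and 18.7 FPKM) were below the KO control mean of 22.4 FPKM. The difference between the PTX effects was -0.50 (edgeR adjusted p = 0.724), and -0.33 without WT control 1. Neither difference passed the threshold in edgeR. No group had more than 3 libraries, so single libraries were not tested for lying apart.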

How the results depend on the processing

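The 18 marker fold changes with an unadjusted p under 0.05 kept their direction in 297 of 297 alternatives, and 6 of these passed the threshold, all for Fabp7. These 18 were picked by that p in the main fit, and the alternatives refit the same libraries, so a kept direction is no separate support. The sizes moved more. With the central marker score as a covariate, the difference of PTX effects for Gfap went from 3.26 to 0.38. The change of Fabp7 after PTX in KO went from -0.34 to -0.16. Fold changes of markers with a higher p were not computed again. DESeq2 called 1 marker for PTX in WT, 1 for KO against WT over both treatments and 1 for replicate 3 against the others, and 0 in the other comparisons. Without the filter on low values 1 marker was called for replicate 3, and leaving out single libraries gave 0 to 1 there and 0 elsewhere. Over all genes DESeq2 called 309 in the PTX comparison of WT mice and 29 in that of KO mice, 42 for KO against WT in controls, 10 after PTX, 12 for the difference of PTX effects, 28 over both treatments and 123 for replicate 3. With only the libraries compared, edgeR called 5 for PTX in WT, 4 in KO mice and 5 for KO against WT after PTX. For PTX in WT it called 2 without the filter and 0 without the sex covariate, and limma called 0 with a pseudocount of 1 and 0 with 0.1. For replicate 3 it called 14 without the filter. Without the 4 libraries under 60 M counts, an alternative chosen after seeing the data, it called 0 for PTX in WT, 2 for KO against WT in controls and 8 for replicate 3. The comparisons with KO PTX could not be fitted. Leaving out single libraries gave 0 to 30 genes for PTX in WT (30 without WT control 3), 1 to 7 in KO mice, 1 to 4 for KO against WT in controls, 2 to 7 after PTX, 1 to 6 for the difference of PTX effects, 2 to 5 over both treatments and 5 to 12 for replicate 3. Without either KO PTX library that group holds 1, which is assumed to vary like the other groups; the 7, 7 and 6 genes for PTX in KO, KO after PTX and the difference of PTX effects are from the fit without KO PTX 2, and PTX in KO also gave 7 without KO control 2. The cause of these shifts was not tested. Without the sex covariate Fabp7 was -0.41 after PTX in WT (edgeR adjusted p = 0.498), and -0.43 for KO against WT in controls (edgeR adjusted p = 0.74).

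Libraries of the same number correlated at -0.228 to 0.234 in their deviations from the group means (15 pairs, 5 over 0.1), with a median r of 0.0619 against -0.0331 for other pairs. As KO PTX holds 2 libraries, their deviations are mirror images, and each r with one is the r with the other with its sign changed. The pairs of number 3 are also the female pairs, and all of them had a positive r, so number and sex are mixed here. Of 11 libraries, 7 correlated best with one of their own number. The count expected without a link between equal numbers was not computed, so this count cannot show a common origin. As the labels tie the numbers to no common origin and most pairs were not over 0.1, the groups were not compared as pairs. With the replicate number as a block, 0 markers were called in each of the 6 group comparisons, and edgeR called 1, 1, 1, 2, 1 and 2 genes over the whole table, in the order PTX in WT, PTX in KO mice, KO in controls, KO after PTX, the difference of PTX effects and KO over both treatments. Fabp7 after PTX in WT was -0.43 with the block. Gfap had 69 to 1188 counts per library, with the 3 highest values in libraries under 60 M counts.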
